A study of Mus musculus with 10 samples.

Results

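The tubulin genes described here are 10 of the 48476 genes in the count table, chosen by name as the α-tubulin genes Tuba1a, Tuba1b, Tuba1c and Tuba4a and the β-tubulin genes Tubb2a, Tubb2b, Tubb3, Tubb4b, Tubb5 and Tubb6. All 10 passed the filter on low counts. They were followed by bulk RNA-seq during the reprogramming of mouse embryonic fibroblasts (MEFs), taken from E13.5 embryos of the strain CBA/CaJ X C57BL/6J. By the paper's methods these MEFs carried an Oct4-GFP reporter. The cells of both arms received retroviruses for Oct4, Klf4 and Sox2 (OKS), made in PlatE packaging cells, and were grown in iCD1 medium. In the OKS + FoxO6 arm a retrovirus for the forkhead factor FoxO6 was added, and in the OKS + DsRed arm, the control, one for the red fluorescent protein DsRed. From each arm 1 library was made on days 0, 1, 3, 5 and 7, so a difference on a single day has no replicate check, and all cells of a dish were sequenced together.

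Microtubules are hollow polymers of dimers, each made of an α- and a β-tubulin. Mammals carry several genes for each, called isotypes, whose products differ most in their acidic tails, where modifying enzymes and motor proteins bind. Dividing cells use microtubules for the spindle and fibroblasts use them for transport and shape. Tubb3, the class III β-tubulin, is widely used as a marker of neurons. Tubb5 and Tuba1b are isotypes of most dividing cells, and Tuba1a and Tubb2b are known for their part in the developing brain. Cells also hold the level of tubulin messages in check, since excess free tubulin triggers decay of the messages on the ribosome through Ttc5.

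Library totals ran from 1208379 to 2225750 expected counts (median 1601151), which is shallow for rare messages. Foxo6 itself checked the labels, with a TPM (a level corrected for gene length and library size) of 0.61 to 2.29 in OKS + DsRed and 762 to 1356 in OKS + FoxO6, already at 1017 on day 0. The fibroblast markers fitted the label of the cells at day 0 and then declined, their summed TPM going from 8577 to 775 in OKS + DsRed and from 8375 to 1117 in OKS + FoxO6. In bulk samples, fewer cells of a type and less RNA per cell cannot be told apart. Nothing in the labels says whether the 5 days of an arm came from separate infections, so the p-values below describe the spread within these time courses.

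Some members are neighbours in the genome and others lie alone (GRCm38, GENCODE M21). Tubb3 (ENSMUSG00000062380) is at chr8:123411424-123422015 on the plus strand and shares its strand with the overlapping model Gm20388. Tuba4a (ENSMUSG00000026202) is at chr1:75214228-75219865 on the minus strand and overlaps Stk16 on the other. Tuba1b (ENSMUSG00000023004, chr15:98931425-98934565), Tuba1a (ENSMUSG00000072235, chr15:98949837-98953703) and Tuba1c (ENSMUSG00000043091, chr15:99029891-99038110) form a cluster, in which Tuba1a and Tuba1b are 15271 bases apart and both overlap the model Gm49450 on their own strand, and Tubb2a (ENSMUSG00000058672, chr13:34074274-34078007) and Tubb2b (ENSMUSG00000045136, chr13:34126748-34130466) are neighbours 48740 bases apart. Tubb4b (ENSMUSG00000036752) is at chr2:25222160-25224702 and Tubb5 (ENSMUSG00000001525) at chr17:35833921-35838306.

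The stretches before the first exon of Tubb3, the member that differed most between the arms, and of Tubb4b, a member whose shift was near 0, are printed from the promoter table of RefSeq (GRCm38.p6). Capitals mark GGGCGG, the letters bound by Sp1, CCAAT, the letters of NF-Y, and TTTGAA, a letter string known from cell cycle promoters, each searched on both strands.
Tubb3, chr8:123411303-123411423, plus strand: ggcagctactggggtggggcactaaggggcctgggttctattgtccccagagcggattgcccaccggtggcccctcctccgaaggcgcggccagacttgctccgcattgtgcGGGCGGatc
Tubb4b, chr2:25224703-25224952, minus strand: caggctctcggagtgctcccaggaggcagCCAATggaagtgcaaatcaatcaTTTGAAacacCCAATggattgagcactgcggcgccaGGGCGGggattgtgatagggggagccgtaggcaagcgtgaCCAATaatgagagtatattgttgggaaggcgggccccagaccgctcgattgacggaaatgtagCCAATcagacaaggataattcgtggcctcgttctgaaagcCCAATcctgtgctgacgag
The Tubb4b stretch, of 250 bases, held 5 CCAAT strings and that of Tubb3, of 121 bases, held 0, while each held 1 GGGCGG. Over the whole promoter windows, which run into the first exon, 8 of the 10 members had an entry. GGGCGG was in 7 of these 8 and in 35.7% of all 32851 promoters, and CCAAT was in 5 of 8, Tubb3 and Tubb4b included, and in 37.4%. The forkhead string GTAAACA was in 0 of the 8 and in 3.65% of all promoters. These are matches of letters in a window and say nothing of whether a factor was bound.

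Tubb3 was the member that differed most between the arms. Its level on days 0, 1, 3, 5 and 7 was 143, 97.2, 42.5, 32.3 and 50.65 TPM in the OKS + DsRed control, from 40 to 167 reads. In OKS + FoxO6 it was 42.2, 18.3, 8.52, 3.83 and 1.85 TPM on the same days, from 84, 25, 15, 7 and 3 reads. OKS + FoxO6 was below OKS + DsRed on all 5 days, and the ranges of the arms overlapped only because its day 0 value lay above day 5 of the control. As a ratio of CPM (reads scaled to the library size after TMM normalization), the control was 3.61-fold higher at day 0 (95% exact binomial interval 2.76 to 4.75). The ratio was 5.80 the day after (3.76 to 9.28), 4.94 on day 3 (2.75 to 9.40), 8.53 on day 5 (3.78 to 22.6) and 24.6 on day 7 (8.15 to 121). These intervals cover counting error only. At every day the interval lay above a 2-fold difference, day 0 included.

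Over the 5 days together, Tubb3 was 6.00-fold lower in OKS + FoxO6, with a log2 fold change of -2.59 ± 0.27 (SE, 5 libraries per arm, adjusted p = 0.000222, edgeR's quasi-likelihood test, days as levels of a factor, Benjamini-Hochberg adjustment over 10977 genes). It stayed past the threshold of 0.05 with any day left out. Without the day term, where the change over time enters the error, the shift was -2.35 with an adjusted p of 0.133.

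**Figure D1:**
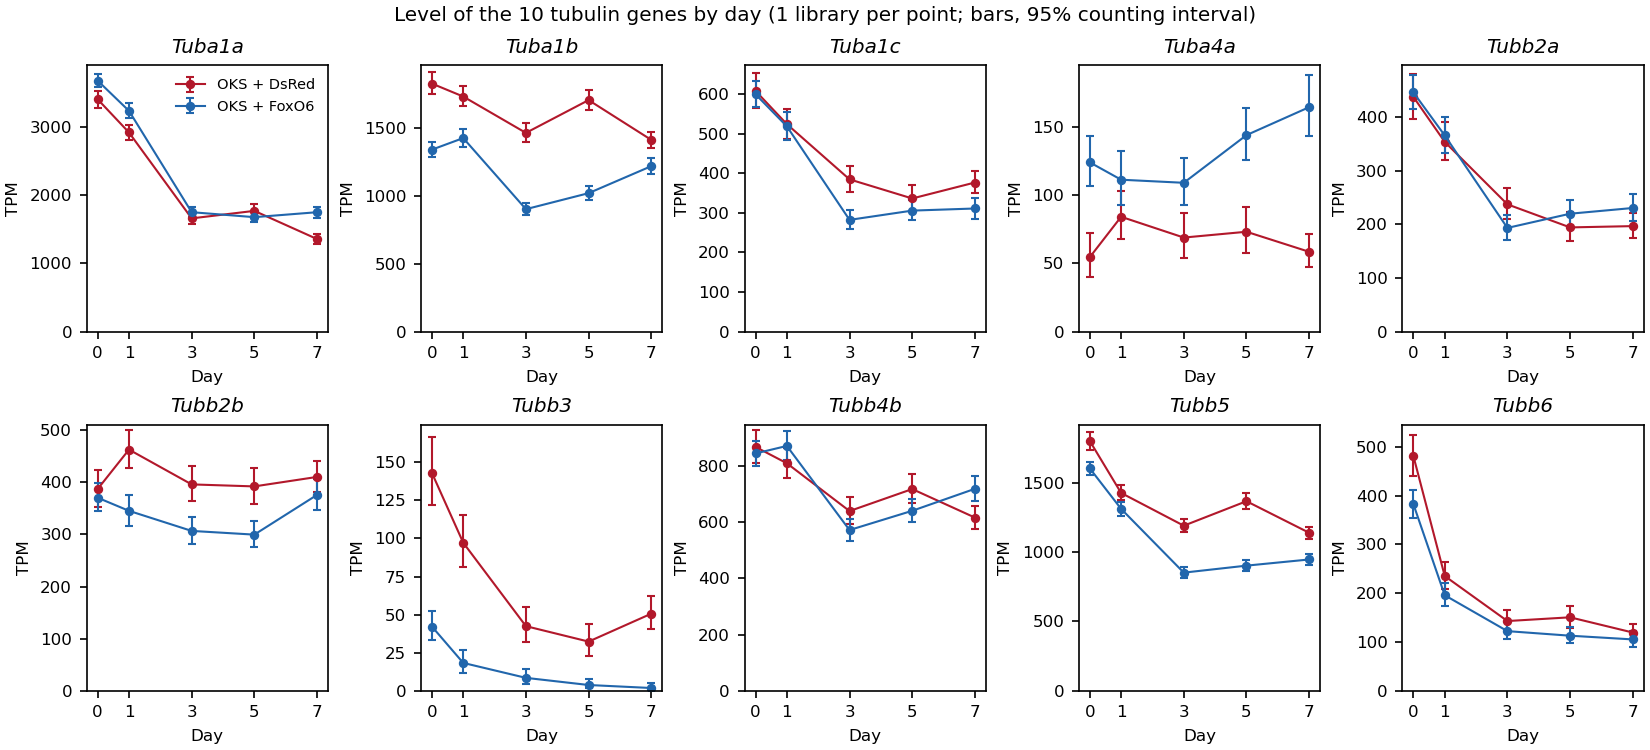
TPM of each of the 10 tubulin genes (vertical axes, each from 0) against the day (horizontal axes) in OKS + DsRed (red) and OKS + FoxO6 (blue). Points are single libraries and bars are 95% counting intervals. Tubb3 is lower in OKS + FoxO6 and Tuba4a is higher on all 5 days, while Tuba1a and Tubb6 decline in both arms.

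Tuba4a, an α-tubulin whose message lacks the final tyrosine codon of the other main α-isotypes, went the other way. On the same 5 days it stood at 54.5, 84.1, 68.9, 73.1 and 58.4 TPM in OKS + DsRed and at 124, 111, 109, 144 and 164 TPM in OKS + FoxO6. The arms did not overlap, which was so, with OKS + FoxO6 above, in 1.96% of the 14837 genes whose mean TPM reached 1. The ratio of CPM was 2.19 at day 0 (1.59 to 3.09) and 2.80 at day 7 (2.19 to 3.60), but at day 1 it was 1.20 with an interval of 0.916 to 1.59. Over the 5 days together Tuba4a was 1.83-fold higher in OKS + FoxO6 than in OKS + DsRed (log2 0.87 ± 0.17, SE, adjusted p = 0.00744, edgeR). Without the day term the shift was 0.89 with an adjusted p of 0.0517. The counting was not stated to use strand, so reads from the overlapping Stk16 could not be told apart.

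Tuba1b, an abundant isotype of dividing cells, was the third member past the threshold. Its level was 1825, 1729.6, 1462, 1703 and 1411 TPM in OKS + DsRed and 1339, 1424, 901, 1019 and 1217 TPM in OKS + FoxO6 over the same days. The control was higher on all 5 days, yet its lowest TPM was below the highest of OKS + FoxO6. The shift was -0.50 ± 0.13 on the log2 scale, 1.41-fold lower in OKS + FoxO6 (SE, adjusted p = 0.0235, edgeR). This call did not hold without day 3 (-0.43, adjusted p = 0.120) or without day 5 (-0.42, adjusted p = 0.121), nor without the day term (-0.48, adjusted p = 0.212). It also rests on how reads were split among near-identical genes. Of all 60-base windows of the Tuba1b transcripts, 65.6% occur in another gene, as do 70.7% for Tuba1a and 51.1% for Tuba1c. With the reads of these 3 genes summed the shift was -0.18 ± 0.11 (SE, adjusted p = 0.317).

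In all, 1 of the 10 members rose and 2 fell between the arms. Here and below, a rise or fall between the arms or in OKS + FoxO6 means higher or lower than in OKS + DsRed. Over all genes tested, 6.93% were higher and 7.13% were lower in OKS + FoxO6 past the same threshold. The median log2 shift of the members was -0.25, and that of all genes was -0.02. On single days the members past a 2-fold difference were Tubb3, lower on each of the 5 days, and Tuba4a, higher on days 0 and 7. Of all genes, 6.32%, 9.33%, 11.7%, 11.4% and 16.3% were over 2-fold lower on the 5 days in turn, and 10.4%, 7.95%, 8.16%, 10.2% and 8.25% were over 2-fold higher.

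On TPM, 6 of the 10 members were lower in OKS + FoxO6 on all 5 days, as were 8.58% of genes, and 1, Tuba4a, was higher on all 5, as were 9.86%. Among the 6, Tubb5, Tubb2b, Tubb6 and Tuba1c missed the threshold. Tubb5, the most abundant β-isotype here, was at 1802, 1427, 1190.6, 1367 and 1139.5 TPM in OKS + DsRed and at 1604, 1312, 852, 903 and 947 TPM in OKS + FoxO6. The difference on each day was in the same direction, and the shift was -0.35 ± 0.11 (SE, adjusted p = 0.0645, edgeR). Without the filter on low counts it passed at -0.32 (adjusted p = 0.0358, edgeR). That made 4 members past the threshold, in a fit where 1148 of 22663 genes were higher and 1101 lower in OKS + FoxO6. Tubb2b was at 387, 462.5, 396, 392 and 410.1 TPM in the control and at 370.2, 345, 307, 299 and 376 TPM in OKS + FoxO6. The TPM ranges of the arms did not overlap for Tubb2b, which was so with a lower OKS + FoxO6 in 1.29% of genes. On CPM the Tubb2b ranges overlapped, with 356 to 429.7 in the control and 270 to 401 in OKS + FoxO6, and on day 7 the log2 difference was 0.03 on that scale against -0.13 on TPM. The shift of Tubb2b was -0.30 ± 0.11 (SE, adjusted p = 0.111, edgeR). Tubb6 had a shift of -0.31 ± 0.12 (SE, adjusted p = 0.10, edgeR) and Tuba1c one of -0.20 ± 0.11 (SE, adjusted p = 0.263, edgeR). Without day 7, Tubb5 (-0.41, adjusted p = 0.0319), Tubb2b (-0.38, adjusted p = 0.0324) and Tubb6 (-0.38, adjusted p = 0.0400) passed the threshold.

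The remaining members, Tuba1a, Tubb2a and Tubb4b, had shifts near 0. Tuba1a had a log2 shift of 0.11 with a 95% interval of -0.15 to 0.36, Tubb2a one of 0.01 (-0.26 to 0.29) and Tubb4b one of -0.04 (-0.30 to 0.22). A change of 2-fold lay outside each of these intervals. On single days the CPM ratio of OKS + FoxO6 over the control could depart from 1. At day 7 it was 1.46 for Tuba1a (1.37 to 1.56) and 1.29 for Tubb4b (1.18 to 1.41). For Tubb4b it was below 1 at day 5 (0.876, 0.796 to 0.964). Of the windows of Tubb4b, 33.5% occur in other genes, mainly the pseudogene Tubb4b-ps1, and of those of Tubb2a, 46.7% do, mainly in Tubb2b. Tubb3, Tubb5 and Tubb6 share no such window with another gene.

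**Figure D2:**
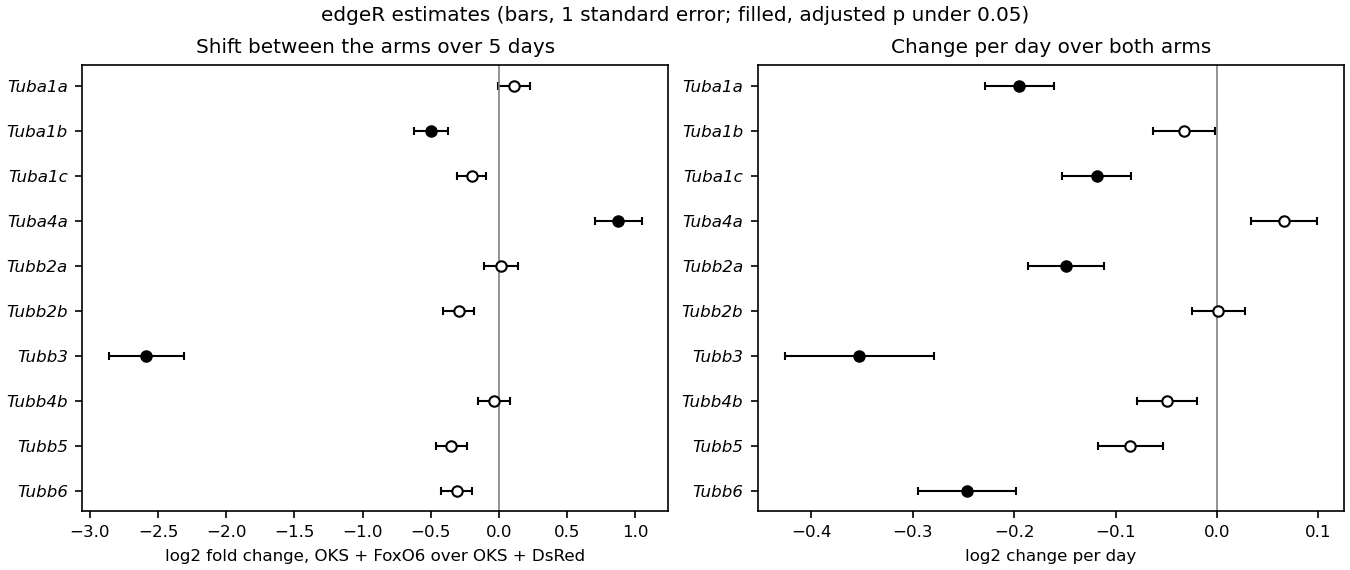
The edgeR estimates for each member. Left, the log2 fold change of OKS + FoxO6 over OKS + DsRed across the 5 days, and right, the log2 change per day over both arms, with bars of 1 standard error and filled points for an adjusted p under 0.05. Tubb3 lies at -2.59 in the left panel, far from the other members, and Tuba4a at 0.87 is the member past the threshold to the right.

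The second comparison asked how the members changed with time after infection, with both arms in 1 fit. Tubb3, Tubb6, Tuba1a, Tubb2a and Tuba1c fell, so 5 of the 10 members fell and 0 rose, where 10.1% of all genes fell and 9.93% rose. The median slope was -0.10 log2 per day for the members and 0.00 for all genes. All 10 fibroblast markers that were tested also fell, with a median slope of -0.46 log2 per day, and the part of this decline in the tubulin values was not tested.

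Tubb6, a class V β-tubulin of many non-neuronal cells, had the steepest slope after Tubb3. It was at 481, 235, 143, 151 and 119 TPM in OKS + DsRed and at 383, 196, 122, 113 and 105 TPM in OKS + FoxO6. Both arms lost most of the message by day 3, and the slope was -0.25 ± 0.05 log2 per day (SE, adjusted p = 0.00388, edgeR). Tuba1a had the highest mean TPM of the members, though Tuba1b was above it at day 7 of the control. Tuba1a was at 3400.3, 2914, 1657, 1767 and 1355 TPM in the control and at 3673, 3230.2, 1747, 1675 and 1747 TPM in OKS + FoxO6. Its fall had ended by day 3 in OKS + FoxO6, where day 7 stood at the level of day 3, and the slope was -0.19 ± 0.03 (SE, adjusted p = 0.00189, edgeR). Tubb6 and Tuba1a kept their calls with any day left out, but without day 0 the slope of Tubb6 was -0.12 (adjusted p = 0.0370).

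Tubb2a was at 437, 353, 237, 194 and 196 TPM in OKS + DsRed and at 445, 365, 193, 219.6 and 230.2 TPM in OKS + FoxO6. The CPM ratio of OKS + FoxO6 over the control was below 1 at day 3 (0.822, interval 0.693 to 0.976) and above 1 at day 7 (1.30, 1.11 to 1.53), and the slope over both arms was -0.15 ± 0.04 (SE, adjusted p = 0.0153, edgeR). The call was lost without day 0 (-0.10, adjusted p = 0.144), day 1 (-0.15, adjusted p = 0.0551) or day 5 (-0.14, adjusted p = 0.0765), the slope was -0.25 without day 7 (adjusted p = 0.00243), and for the summed reads of Tubb2a and Tubb2b the slope was -0.06 ± 0.03 (SE, adjusted p = 0.213). Tuba1c was at 609, 524, 385, 337 and 377 TPM in the control and at 600.0, 519, 282, 306 and 311 TPM in OKS + FoxO6. It was lower from day 3 on than before in both arms, with a slope of -0.12 ± 0.03 (SE, adjusted p = 0.0289, edgeR). This call too was lost without day 0 (-0.07, adjusted p = 0.225), day 1 (-0.12, adjusted p = 0.0888) or day 5 (-0.11, adjusted p = 0.118), and without day 7 the slope was -0.21 (adjusted p = 0.00350). The sum of Tuba1a, Tuba1b and Tuba1c had a slope of -0.12 ± 0.03 (SE, adjusted p = 0.0187).

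Tubb3 fell by 0.35 ± 0.07 on the log2 scale per day over both arms (SE, adjusted p = 0.00541, edgeR). Without day 0 the slope was -0.23 (adjusted p = 0.0592), and without day 7 it was -0.55 (adjusted p = 0.000480). In OKS + FoxO6 alone it was -0.64 (adjusted p = 0.00471), and in OKS + DsRed alone, where day 7 stood above days 3 and 5, it was -0.25 (adjusted p = 0.109). The difference between these slopes was -0.40 ± 0.14 log2 per day and did not pass the threshold (SE, adjusted p = 0.502, unadjusted p = 0.0137, edgeR). Without day 7, where the OKS + FoxO6 value rests on 3 reads, the difference was -0.23 (adjusted p = 0.998, unadjusted p = 0.105). In that comparison of slopes 0.0% of all genes passed in either direction, with 954 at an unadjusted p under 0.05, and DESeq2 called 12 up and 14 down with 0 members among them.

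Tubb5, Tubb4b, Tuba1b, Tuba4a and Tubb2b did not pass for a change with time. Tubb4b, an isotype of cilia and of many dividing cells, was at 867, 809, 639, 717 and 616 TPM in OKS + DsRed and at 844, 871, 572, 640.2 and 718 TPM in OKS + FoxO6, with a slope of -0.05 ± 0.03 (SE, adjusted p = 0.278, edgeR). Its lowest value was at day 7 in one arm and at day 3 in the other. The slopes of Tubb5 (-0.09, adjusted p = 0.0829), Tuba1b (-0.03, adjusted p = 0.509), Tuba4a (0.07, adjusted p = 0.182) and Tubb2b (0.00, adjusted p = 0.981) did not pass either. The slopes of Tubb5, Tubb4b and Tuba1b moved with the first and the last day. Without day 7 that of Tubb5 passed at -0.14 (adjusted p = 0.0373), and without day 0 it was -0.03 (adjusted p = 0.567). Without day 7 the slope of Tubb4b was -0.11 (adjusted p = 0.0643) and that of Tuba1b -0.09 (adjusted p = 0.132), and without day 0 they were -0.02 (adjusted p = 0.723) and -0.01 (adjusted p = 0.921).

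Against day 0 of its own arm, 0 members were over 2-fold higher on any later day, where 15.4%, 21.4%, 22.6% and 20.9% of all genes were on days 1, 3, 5 and 7 in OKS + DsRed and 9.1%, 13%, 16.2% and 14.3% in OKS + FoxO6. Members over 2-fold lower numbered 1, 3, 3 and 4 on these days in OKS + DsRed, where 8.14%, 9.48%, 11.4% and 11.4% of genes were. In OKS + FoxO6 they numbered 1, 5, 4 and 3, where 8.15%, 9.38%, 10.3% and 16.9% of genes were. At day 7, 8 of the 10 members were below day 0 in both arms, as were 29.1% of genes, and Tuba4a and Tubb2b were not. Tubb3 ended at day 7 at a 2.83-fold lower TPM than at day 0 in OKS + DsRed and at a 22.8-fold lower TPM in OKS + FoxO6, the latter from 3 reads. Tubb6 ended 4.03-fold and 3.63-fold lower, and Tuba1a 2.51-fold and 2.10-fold lower, in the same order of arms.

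Summed over the members, the level on day 0 was 10006 TPM in the control and 9424 TPM in OKS + FoxO6. On the later days the sums were 8636, 6221, 6733 and 5733 TPM in OKS + DsRed and 8392, 5094, 5321 and 5818 TPM in OKS + FoxO6. Day 7 was thus at 0.573 of day 0 in one arm and at 0.617 in the other. On TPM the α-members outweighed the β-members in every library, with a ratio of summed TPM between 1.26 and 1.70. In reads, which are not corrected for length, the β-members were above them in OKS + DsRed at day 5 (4069 against 3890.1) and day 7 (5077 against 4633). The order of the mean levels over the 10 libraries was Tuba1a, Tuba1b, Tubb5, Tubb4b, Tuba1c, Tubb2b, Tubb2a, Tubb6, Tuba4a and Tubb3, from 2316 down to 44.1 TPM. Neighbours such as Tuba1b (900.8 to 1825 TPM) and Tubb5 (852 to 1802 TPM), or Tuba1c (282 to 609 TPM) and Tubb2b (299 to 462.5 TPM), overlapped in their ranges over the libraries.

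The make-up of the β-messages at day 7 also differed from that at day 0. Tubb3 went from 3.48% of the summed β-member TPM on day 0 to 2.0% on day 7 in OKS + DsRed, and from 1.14% to 0.0778% in OKS + FoxO6. Tubb6 went from 11.7% to 4.72% and from 10.4% to 4.43%, while Tubb2b went from 9.40% to 16.2% and from 10.04% to 15.8%. The share of Tubb2b was thus larger at day 7 in both arms, on a smaller sum, while its own TPM differed little from day 0. Tubb5 went from 43.8% to 45.0% in the control and from 43.5% to 39.8% in OKS + FoxO6. Among the α-messages, Tuba4a went from 0.925% to 1.83% and from 2.16% to 4.78% in the same order. Tuba1a went from 57.7% to 42.3% and from 64.0% to 50.8%, a split that shared reads with Tuba1b and Tuba1c can move. These shares have 1 library each and no test, and their size depends on the correction for length. As shares of reads in place of TPM, Tuba1a was 33.1% and Tuba1b 49.7% of the α-members at day 7 in OKS + DsRed, against 42.3% and 44.1% on TPM, while Tubb3 went from 3.08% to 1.75% of the β-members in OKS + DsRed and from 1.02% to 0.0705% in OKS + FoxO6.

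**Figure D3:**
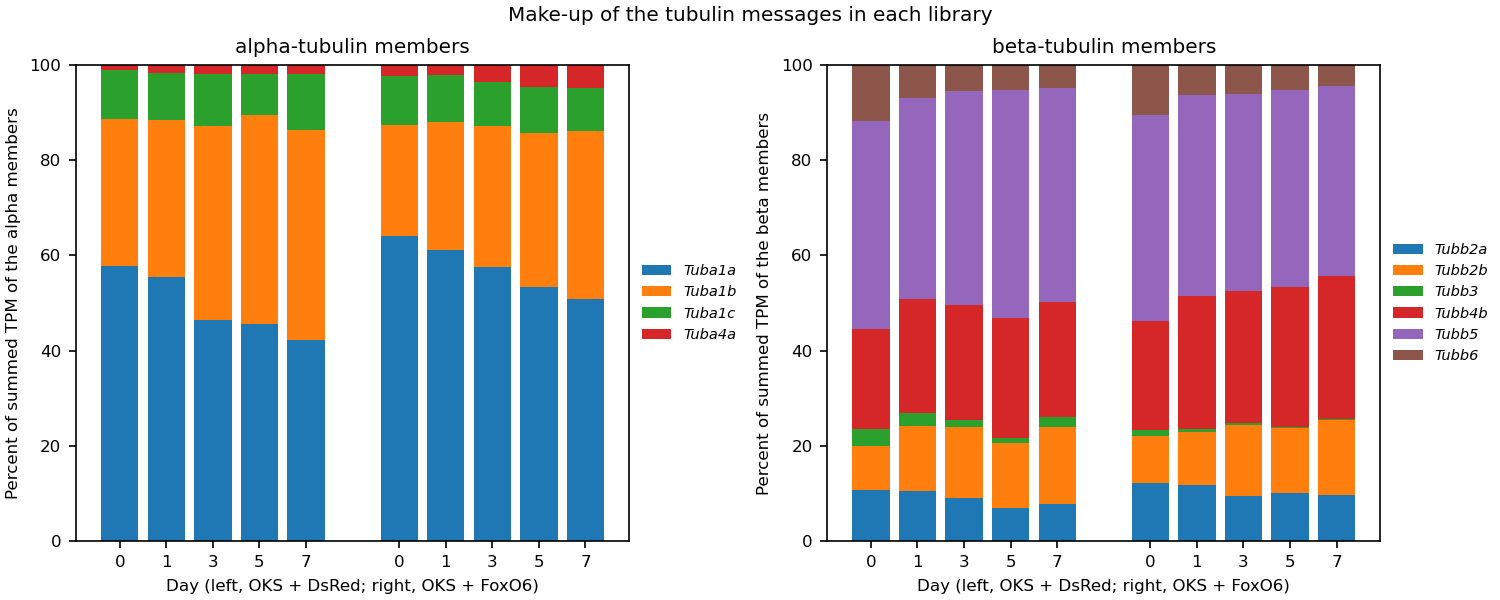
Percent of the summed TPM of the 4 α-members (left panel) and the 6 β-members (right panel) taken by each gene, with 1 stacked bar per library in order of day, OKS + DsRed on the left of each panel and OKS + FoxO6 on the right. Tuba1a and Tubb6 take less and Tubb2b takes more from day 0 to day 7 in both arms, and the Tubb3 segment shrinks to 0.0778% in OKS + FoxO6.

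Across the 10 libraries the members did not move as 1 block. On log2(TPM + 1), Tuba1a and Tubb2a had a Pearson correlation of 0.96 and Tubb5 and Tubb6 one of 0.90, while Tuba4a and Tubb3 had one of -0.83. The genes most like Tubb3 by this measure, out of 11421 others whose mean TPM reached 5, were Nap1l1 (0.971), Itga6 (0.969), Gm8113 (0.969), Pgap2 (0.963) and Elk3 (0.960). Itga6, an integrin of laminin binding, was at 212, 235, 141, 115 and 160.3 TPM in OKS + DsRed and at 187, 125, 59.1, 52.6 and 39.7 TPM in OKS + FoxO6. Like Tubb3, it was lower in OKS + FoxO6 on every day and lowest there at day 7. These correlations are descriptions over libraries that share the same days and arms.

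Of 10 other tubulin genes listed, 5 entered the tests, and 1 fell and 0 rose in OKS + FoxO6, where 7.13% and 6.93% of all genes did. The gene that fell was Tubb4a, a β-isotype of the brain, at 27.9, 9.75, 35.4, 47.8 and 21.4 TPM in OKS + DsRed and 18.02, 8.42, 7.11, 21.4 and 15.5 TPM in OKS + FoxO6 (log2 -1.0 ± 0.28, SE, adjusted p = 0.0381, edgeR). Tubg1, the γ-tubulin that nucleates microtubules, was at 72.5 to 141 TPM, about the level of Tuba4a, and had a shift of -0.39 (adjusted p = 0.146). Tuba3a and Tubb1, the β-isotype of platelets, had 0 reads in all libraries.

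Tubb3 and Tubb4a are both read as neuronal, so the other neuronal markers are given beside them. Of the 18 listed without Tubb3, 10 were tested, and 6, Tubb4a among them, fell and 0 rose in OKS + FoxO6, where 7.13% of all genes fell and 6.93% rose. The median shift was -0.93. The neurofilament gene Nefl was at 46.6, 372, 368, 246 and 238 TPM in OKS + DsRed and at 8.44, 30.4, 42.0, 43.4 and 51.7 TPM in OKS + FoxO6 (log2 -2.80 ± 0.21, SE, adjusted p = 4.6e-05, edgeR). Nefl differed between the arms about as much as Tubb3, but within each arm it was lowest at day 0, when Tubb3 was highest. Nefm, a second neurofilament gene (-1.53, adjusted p = 0.00115), Stmn2, a stathmin of growing axons that binds free tubulin (-1.15, adjusted p = 0.0180), Syt1, a calcium sensor of synaptic vesicles (-0.997, adjusted p = 0.00800), and Ncam1, an adhesion molecule (-0.87, adjusted p = 0.00746), fell too, with Tubb4a as the sixth. The other 4 did not pass, with shifts of -0.58 for Mapt, which encodes tau (adjusted p = 0.0594), -0.49 for Gap43, a protein of growth cones (adjusted p = 0.0835), -0.03 for Map2, a dendritic microtubule protein (adjusted p = 0.962), and 0.11 for Uchl1, a deubiquitinase abundant in neurons (adjusted p = 0.744). Uchl1 stood at 367 TPM in OKS + FoxO6 and 210.0 TPM in the control at day 7.

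The list was uneven in level. Map2 reached 65.2 TPM, Syt1 47.1 TPM and Nefl 372 TPM in their highest libraries, whereas other neuronal genes were at or near 0. Rbfox3, Syp and Nefh had at most 3 reads in any library, Ina at most 4, Snap25 at most 8 and Dcx at most 9. The summed TPM of the neuronal list was between 765 and 1351 in OKS + DsRed and between 486 and 660 in OKS + FoxO6, without overlap. Nes, the neural progenitor filament, was also lower in OKS + FoxO6 (-1.53, adjusted p = 0.000246), being 1 of 2 tested genes of its list to fall (all genes, 7.13%). Over time 1 neuronal marker rose and 3 fell (all genes, 9.93% and 10.1%), with Mapt rising by 0.62 log2 per day (adjusted p = 0.000223) and Gap43 (-0.53, adjusted p = 0.000333), Stmn2 (-0.20, adjusted p = 0.0458) and Ncam1 (-0.16, adjusted p = 0.0193) falling.

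**Figure D4:**
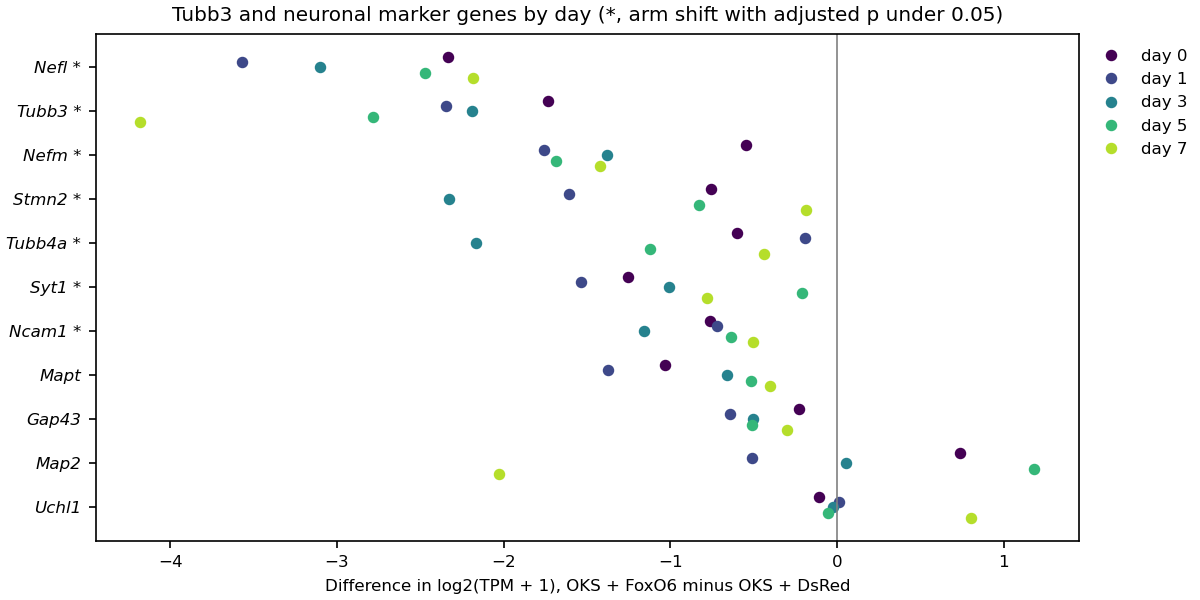
Difference in log2(TPM + 1) between OKS + FoxO6 and OKS + DsRed (horizontal axis) for Tubb3 and the tested neuronal markers (rows), with 1 point per day from day 0 (dark) to day 7 (light) and a star for an adjusted p under 0.05 over the 5 days. Tubb3 moves from -1.74 at day 0 to -4.18 at day 7, whereas Nefl is nearest to 0 at day 7.

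Genes that make, fold and adjust tubulin were tested from lists of their roles, and their counts between the arms stand against 6.93% higher and 7.13% lower among all genes. For the supply of dimers, 0 of 14 chaperonin and prefoldin subunits differed between the arms, and Cct7, a subunit of the chaperonin that folds tubulin, fell with time (-0.08 log2 per day, adjusted p = 0.0344), as 1 of 14, where 10.1% of all genes fell. Of 7 folding cofactors, Tbcel, a relative of cofactor E, rose (0.61, adjusted p = 0.0308) and 0 fell. Of 11 genes of the γ-tubulin ring complex, which seeds microtubules, Mzt1 rose (0.52, adjusted p = 0.0412) and 0 fell between the arms.

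Ttc5, the factor that recognises new tubulin chains when free tubulin is in excess, was 1 of 4 autoregulation genes to rise. It was at 27.8, 40.1, 43.9, 55.8 and 42.2 TPM in OKS + DsRed and at 63.8, 101, 99.8, 109 and 88.5 TPM in OKS + FoxO6. The lowest value in OKS + FoxO6 exceeded the highest of the control, as in 1.96% of the 14837 genes whose mean TPM reached 1. The shift was 1.13 ± 0.13 (SE, adjusted p = 0.000410, edgeR). Whether Ttc5 bears on the tubulin levels was not tested.

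Of 16 tested tubulin modifying enzymes, 1 rose and 3 fell, beside 6.93% and 7.13% of all genes. Sirt2, a tubulin deacetylase, rose (0.65, adjusted p = 0.0116). Ttl, the ligase that restores the final tyrosine of α-tubulin (-0.94, adjusted p = 0.0235), Tpgs2, a subunit of a polyglutamylase (-0.84, adjusted p = 0.0191), and Hdac6, the main tubulin deacetylase (-0.44, adjusted p = 0.0395), fell. With time Hdac6 rose by 0.24 log2 per day (adjusted p = 0.00152), while Tpgs2 (-0.31, adjusted p = 0.00196), Ttl (-0.27, adjusted p = 0.00432) and Ttll12 (-0.12, adjusted p = 0.0117) fell, where 9.93% of all genes rose and 10.1% fell with time.

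Of 17 tested microtubule associated and plus end proteins, 0 rose and 2 fell between the arms (all genes, 6.93% and 7.13%), Map1b, an axonal protein (-0.79, adjusted p = 0.0167), and Ckap5, a microtubule polymerase (-0.51, adjusted p = 0.0346). With time 1, Mapt, rose and 5 fell, where 9.93% of all genes rose and 10.1% fell. Among the 5 were Map6 (-0.39 log2 per day, adjusted p = 0.000673), Map1a (-0.31, adjusted p = 0.000704) and Dclk1 (-0.31, adjusted p = 0.00971). Of 6 severing enzymes, Fignl1 fell in OKS + FoxO6 (-0.92, adjusted p = 0.0174).

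Of 18 mitosis and proliferation markers tested, 11 fell and 0 rose in OKS + FoxO6, where 7.13% of all genes fell and 6.93% rose. The median shift of the 18 was -0.58, and 7 did not pass. Bub1b, a spindle checkpoint kinase (-0.95, adjusted p = 0.00147), Prc1, a bundler of spindle microtubules (-0.78, adjusted p = 0.00793), Ccna2, a cyclin (-0.73, adjusted p = 0.00610), and Kif20a, a kinesin of cell division (-0.72, adjusted p = 0.00466), were among the 11 that fell. Their summed TPM was 1591 to 2313 in OKS + DsRed and 1021 to 1791 in OKS + FoxO6. These markers moved in the same direction as Tuba1b and Tubb3, and their part in those shifts was not tested. With time 0 of the 18 passed in either direction.

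**Figure D5:**
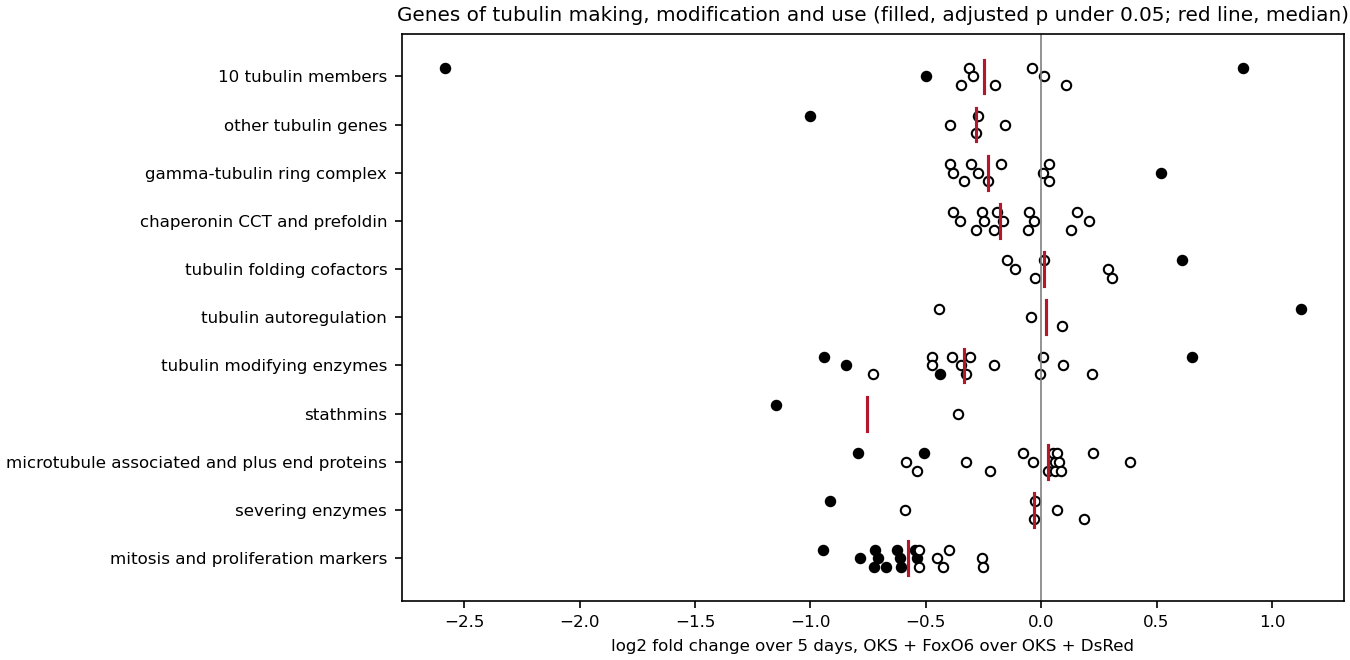
The log2 fold change of OKS + FoxO6 over OKS + DsRed across the 5 days (horizontal axis) for each tested gene of the tubulin lists (rows), with filled points for an adjusted p under 0.05 and a red line at the median of each row. The mitosis markers have a median of -0.58 and lie below 0, while in the rows of chaperonin and folding genes most points are open and close to 0.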

How the data were processed

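Reads were mapped by the authors with Bowtie2 under RSEM against the GENCODE M13 mouse transcriptome (mm10), and they deposited expected counts, not normalized, which were rounded before testing. The deposited TPM values come from the same RSEM runs. The methods name a TruSeq kit and the labels a VAHTS mRNA-seq V3 kit. R 4.3.3 with edgeR 4.0.16 fitted all genes kept by filterByExpr (10977 of 48476), with TMM normalization and quasi-likelihood tests of the shift between arms (day as a factor), of the slope per day (arm as a term) and of their interaction. In simulated counts the arm fit recovered 196 of 200 genes changed 4-fold with 4 false calls, the slope fit 195 with 3 and the interaction fit 104 with 2. These counts held no change over days beyond the added one, and only genes above a set level were changed. For every fit they used 1 dispersion (spread between libraries beyond counting) of 0.0336, that of the arm fit. The real slope and interaction fits had 0.0589 and 0.0562, so the rates need not hold there or for smaller changes. Single days were compared on log2(TPM + 1), which understates the change of low genes, with a limit of 2-fold and no test. Totals of 1208379 to 2225750 counts limit the precision of low genes, and binomial and Poisson intervals cover counting error only. The sharing of 60-base windows was computed from GENCODE M21 transcripts. The genes named are the members, the 5 most like Tubb3, and up to 4 genes past the threshold per list or its most abundant gene, and the members and the lists were chosen with earlier results of these data known. Syt1, Ncam1, and Mapt, Gap43, Map2, Uchl1, Msi1 and Flt1 between the arms were named after their values were seen. So were Actb over time, Itga6 beyond its correlation, the neuronal genes near 0 and the untested neural progenitor genes. DESeq2 1.42.0, RLE size factors, a fit without filter or without day, a length offset, each day left out, each arm alone and CPM were alternatives, and summing genes that share reads was chosen after seeing the data. No proteins are printed.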

Additional observations from a re-analysis of the deposited data

How the results depend on the processing

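The shifts of Tubb3 and Tuba4a kept their direction under every alternative run and their calls under all but the fit with no day term, where 0 members passed against 3. Over the fits that leave out 1 day, between 2 and 6 members passed for the arm shift and between 2 and 6 for the day slope, against 5. For the slope, 1 member passed in OKS + DsRed alone, 2 in OKS + FoxO6 alone, and 3 were over 2-fold lower at day 7 than at day 0 in OKS + FoxO6. On CPM, 5 members were over 2-fold lower at day 5 in OKS + DsRed (3 on TPM) and 2 at day 1 in OKS + FoxO6 (1 on TPM). Those past on CPM alone were Tuba1a and Tuba1c (0.389 and 0.484 of day 0) in the former and Tubb6 (0.485) in the latter. Likewise past on CPM alone were Tubb2a at day 3 in OKS + DsRed (0.471), and in OKS + FoxO6 Tubb5 at day 3 (0.491) and Tuba1c at day 5 (0.470). Shares over all genes were computed on TPM and not on CPM. Of the isotype shares of members other than Tubb3, 78 moved past their binomial interval when taken from reads in place of TPM and 12 did not, nor did the 10 of Tubb3. The signs that turned all belonged to estimates near 0 that passed no test. The arm shift of Tubb2a was -0.000778 with no day term and -0.184 for the sum with Tubb2b, that of Tuba1a was -0.181 for the sum with Tuba1b and Tuba1c, and with 1 day left out Tuba1a ranged from -0.000604 to 0.163, Tubb2a from -0.0749 to 0.106 and Tubb4b from -0.138 to 0.0174. The slope of Tubb2b was -0.00144 with RLE size factors, -0.00303 without a filter, -0.00157 in DESeq2, -0.0190 in OKS + DsRed alone, -0.0564 for the sum with Tubb2a, and from -0.0589 to 0.0174 with 1 day left out. The difference of slopes of Tuba1c was 0.0312 for the sum with Tuba1a and Tuba1b. With 1 day left out it ranged from -0.00216 to 0.0843 for Tuba1a, -0.0694 to 0.0583 for Tuba1b, -0.0295 to 0.00711 for Tuba1c, -0.0353 to 0.0674 for Tubb2b, -0.0320 to 0.0643 for Tubb4b, -0.0905 to 0.0138 for Tubb5 and -0.00289 to 0.0535 for Tubb6. The causes were not tested. Of all 10977 genes tested, 761 rose and 783 fell between the arms, and 124 and 44 with no day term. Without day 3, these were 385 and 320 of 11057, without day 5, 366 and 297 of 10924, and without day 7, 812 and 757 of 10886. Without a filter they were 1148 and 1101 of 22663. With time, 1090 rose and 1114 fell of 10977, and without day 0, 809 and 889 of 11078. Without day 5, they were 579 and 708 of 10924, and without day 7, 1039 and 1021 of 10886. In OKS + DsRed alone 383 rose and 423 fell of 11452, and in OKS + FoxO6 alone 564 and 585 of 11735. The arm shift compares the arms within each day and so is paired by day, and the fit with no day term is its unpaired counterpart. At this depth the Tubb3 values of OKS + FoxO6 from day 3 on rest on at most 15 reads.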

Other observations

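Actins and vimentin are other cytoskeletal messages of these cells. Of 5 tested genes of that list, which shares Acta2 with the fibroblast list, 0 differed between the arms (edgeR), and 4 fell with time, where 10.1% of all genes fell. Acta2, the smooth muscle actin of stress fibres, went from 3227 TPM at day 0 to 29.3 at day 7 in OKS + DsRed and from 3673 to 58.4 in OKS + FoxO6 (-0.89 ± 0.15 log2 per day, SE, adjusted p = 0.00195, edgeR). Most of that drop was over by day 1, when the levels were 304 and 232 TPM. Vim, the intermediate filament of fibroblasts, went from 3636 to 1718 TPM and from 2904 to 1490.5 TPM (-0.14 ± 0.03, SE, adjusted p = 0.00700, edgeR). Actb, at 1437 to 2989 TPM, was the gene that did not fall, with a slope of 0.07 (adjusted p = 0.187, edgeR), and its shift between the arms was -0.25 (adjusted p = 0.232).

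The counts of other cell type markers stand against 6.93% of all genes higher and 7.13% lower in OKS + FoxO6, and 9.93% rising with time. Of the epithelial list, 4 of 4 tested genes fell in OKS + FoxO6, with Cdh1 at -3.12 (adjusted p = 3.7e-05, edgeR), and 3 rose with time. Of the endothelial list, 2 of 3 tested genes rose in OKS + FoxO6, Kdr at 2.19 (adjusted p = 0.0288) and Tek at 0.95 (adjusted p = 0.00114, edgeR). The other tested gene, Flt1, had a shift of -0.29 (adjusted p = 0.655, edgeR). The macrophage gene Cd68, the 1 tested of its list, had a shift of -0.51 (adjusted p = 0.363, edgeR). Of the 9 pluripotency genes, 0 passed the filter on low counts, which asks for reads in several libraries. Their summed TPM was highest on day 7, at 319 in OKS + DsRed and 52.0 in OKS + FoxO6, from 1 library each and without a test. Of the 10 fibroblast markers, 1 rose and 2 fell between the arms.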
